A study of Mus musculus with 36 samples.

Results

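The first postnatal step covers the change in hindlimb muscle RNA between 1 and 2.5 weeks of age, measured on 4 of the 36 arrays of a time course that runs to 20 weeks. The 4 arrays were chosen by their labels, as the ones that pair RNA of a 1-week mouse with RNA of a 2.5-week mouse of the same strain. There were 2 arrays of mdx mice and 2 of control mice, called A and B after the individuals on them, and the 4 arrays held RNA of 8 animals, with no animal on 2 of them. The mdx mice, which carry a nonsense mutation in the dystrophin gene and lack the full-length protein, came from crossing C57Bl/10ScSn-mdx/J animals with C57Bl/6NCrl and CBA/JCrl mice. The control mice were C57Bl/10ScSnOlaHsd with intact dystrophin, so that the mutation and the other strain background cannot be told apart in any difference between the strains. No treatment was given. Each array was printed with 65-mer oligonucleotides in duplicate, and the values below are natural log differences, 2.5 minus 1 week, after removal of the dye effect, for 6754 probes with a gene name. On this scale a 2-fold change is 0.693. A ratio holds no level, so the defining markers of muscle could not be checked against a level, and a change may come from fewer cells of a type or from less RNA per cell, which cannot be told apart in whole muscle.

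In the first weeks after birth, limb muscle of the mouse turns from a dividing, matrix-rich tissue into a contractile one. Myoblasts leave the cell cycle and fuse, embryonic and neonatal isoforms of contractile and calcium handling proteins are replaced by adult ones, and the imprinted genes that drive foetal growth are switched off. In mdx mice these early weeks come before the first wave of fibre necrosis.

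The arrays did not all behave alike. The standard deviation over probes was 0.349 on mdx array A, 0.211 on mdx array B, 0.367 on control array A and 0.286 on control array B. Across probes, which are not independent replicates, the changes correlated with r = 0.567 between the 2 control arrays and r = 0.265 between the 2 mdx arrays. Array B of the mdx mice correlated with the control arrays at 0.276 and 0.221, whereas mdx array A stood apart, at -0.0561 and -0.0422. A change past 2-fold was seen upward for 335 and downward for 44 probes on mdx array A, against 108 upward and 276 downward on control array A. Which calls over both strains were lost without mdx array A is given after their count. Duplicate spots correlated with r between 0.591 and 0.666 on these arrays. Both mdx arrays had the 2.5-week RNA in channel 1 and both control arrays had the 1-week RNA there, so that a dye effect peculiar to these arrays and a difference between the strains cannot be told apart.

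Over both strains, 56 of 6754 probes (0.829%) changed between 1 and 2.5 weeks at an adjusted p under 0.05 from limma, 29 upward (0.429%) and 27 downward (0.400%). All 29 rises were above 0 on every array (11.8% of all probes were), and 22 of the 27 falls were below 0 on every array (9.25% of all probes). The same sign on all 4 arrays was seen for 21.0% of all probes. The test is of the mean of the strains, which 1 strain can carry. Of the 56 probes, 40 were also called in control mice alone, and 1, that of Dlk1, in each strain alone. Ift46 was carried by the controls, with 0.05 and 0.03 in mdx and -1.16 and -1.50 in control mice. Both mdx arrays lay below both control arrays in 11 of the 29 rises, beside 20.3% of all probes. In 20 of the 27 falls both mdx arrays lay above both control arrays, beside 30.3% of all probes. Without the dye correction, or with 1 dye term for both strains, the split was 20 upward and 48 downward. Without mdx array A, 35 probes were called, 28 of them shared with the 56. Without mdx array B, 21 were called, and without control array A 13. The 10 probes that stayed called when each of the 4 arrays was left out in turn were those of Dlk1, Ndn, Ryr3, Col18a1, Cdca3, Akip1, Ift46, Klf9, Cnn2 and Tpm3. Of the genes described below, 8 lost their call over both strains without mdx array A, with means then of 1.11 for Cacna2d1 (adjusted p = 0.127), 1.13 for Per1 (0.138), 0.70 for Ank (0.0661), 0.57 for Sgcd (0.296), 0.66 for Srebf1 (0.0983), 0.43 for Tnni3 (0.449), -0.72 for Sema5a (0.118) and -0.59 for Ccna2 (0.0723). Without control array A, 44 of the 56 calls were lost, among them those of Agtr2, Akap12, Cma1, Ctps2, Sema5a, Ccna2, Cks1b, Thbs2, Cacna2d1, Per1, Pvalb, S100a1, Ank, Ift88, Sgcd, Tnni3, Lpin1 and Srebf1. Without mdx array B, 40 were lost, among them those of Plagl1, Mapk12, Pvalb, S100a1 and Agtr2, and without control array B 19, among them those of Plagl1, Per1 and Tnni3.

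The shared falls with the smallest p were those of the imprinted genes Dlk1 and Ndn. Ryr3 came next, and several other falls had a smaller p than the imprinted Plagl1. Dlk1, an imprinted gene for a transmembrane protein of immature muscle and fat precursors, changed by -1.11 and -1.12 on the mdx arrays and by -1.49 and -1.59 on the control arrays. It was low on all 4 arrays, past 2-fold on each, and both control arrays lay below both mdx arrays, an order seen in 30.3% of all probes. The mean over the strains was -1.33 (SE 0.11, n = 4 arrays, adjusted p = 7.14e-08, limma), a 3.77-fold fall. Dlk1 was also the one gene called in each strain taken alone. Ndn, the imprinted gene of the growth suppressor necdin, changed by -0.52 and -1.12 in mdx mice and by -1.73 and -1.22 in control mice. It fell 3.15-fold over both strains (-1.15, SE 0.11, adjusted p = 1.19e-06), with the lower pair of values again in the controls. Plagl1, an imprinted zinc finger gene that acts on other imprinted growth genes, changed by -0.11, -0.77, -0.74 and -1.15 on mdx arrays A and B and control arrays A and B. Its mean was -0.69 (SE 0.13, adjusted p = 0.00465), and the strains overlapped.

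Of 22 probes in the list of imprinted and neonatal growth genes, these 3 were called lower and 0 higher over both strains, or 13.6% against 0.829% of all probes. The median of the list over both strains was -0.12, beside -0.01 for all probes. By array it was 0.04 and -0.11 on mdx arrays A and B and -0.32 and -0.22 on control arrays A and B. Below 0 on both control arrays were 16 of the 22 probes (72.7%, all probes 38.1%). Below 0 on both mdx arrays were 8 (36.4%, all probes 25.6%). In 11 both mdx arrays lay above both control arrays (50%, all probes 30.3%). The shift of the list was thus larger in the controls, and 0 members were called in the difference. Mest, which encodes a hydrolase-like protein and is paternally expressed, changed by -0.35 and -0.58 in mdx and by -1.12 and -0.94 in control mice, but was not called (mean -0.75, adjusted p = 0.237). Meg3, the non-coding neighbour of Dlk1 with the opposite imprint, had 0.34 and -0.64 in mdx and -1.11 and -0.75 in control mice (mean -0.54, adjusted p = 0.225). Outside the naming rule, the foetal growth factor Igf2 had a mean of 0.00 and H19, its maternally expressed neighbour, of -0.12, and neither was called.

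Ryr3, the ryanodine receptor type that immature fibres use beside Ryr1, had the largest fall of all probes over both strains. One of its 3 probes changed by -0.86 and -1.50 on the mdx arrays and by -2.73 and -1.71 on the control arrays. The mean was -1.70 (SE 0.20, n = 4 arrays, adjusted p = 1.29e-05, limma), or 5.47-fold. Both mdx arrays lay above both control arrays, as in 30.3% of all probes, and the difference was not called. The other 2 probes of Ryr3 had means of 0.00 and 0.08 and were not called, so the probes of this gene disagree. Agtr2, the angiotensin receptor type of the foetus, changed by -0.95 and -1.02 in mdx and by -1.27 and -0.63 in control mice. It fell 2.63-fold over both strains (-0.97, SE 0.17, adjusted p = 0.00327); the difference between the strains was -0.04 (SE 0.35, adjusted p = 0.995), an error that leaves room for unequal falls. Col18a1, the basement membrane collagen from which endostatin is cut, fell as well, with -0.62 and -0.99 in mdx and -0.74 and -1.13 in control mice (mean -0.87, SE 0.13, adjusted p = 5.2e-04).

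In several of the remaining large shared falls the control arrays were the lower pair. Akap12, a scaffold of protein kinase A, had -0.07 and -0.67 in mdx and -2.10 and -1.25 in control mice (mean -1.02, SE 0.17, adjusted p = 0.00189). Sema5a, a semaphorin of axon guidance, had -0.37 and -0.11 in mdx and -1.98 and -0.71 in control mice (mean -0.79, SE 0.15). Cma1, the mast cell chymase, had -0.19 and -0.43 in mdx and -1.28 and -1.22 in control mice (mean -0.78, SE 0.15). In each of these genes both control arrays lay below both mdx arrays, but none was called in the difference between the strains (adjusted p of 0.245 for Akap12, 0.251 for Sema5a and 0.299 for Cma1). Among all probes, both mdx arrays lay above both control arrays in 30.3%. Ctps2, an enzyme of CTP synthesis, had -0.35 and -0.56 in mdx and -2.02 and -0.30 in control mice, so its mean of -0.81 leaned on control array A. Cdca3, a trigger of mitotic entry, had -0.56 and -0.18 in mdx and -1.29 and -1.08 in control mice (mean -0.78, SE 0.12, adjusted p = 5.08e-04).

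Upward, Klf9 changed most. This Krüppel-like transcription factor, a target of thyroid hormone and glucocorticoids, changed by 0.72 and 2.15 in mdx and by 2.94 and 1.20 in control mice. Every array was past 2-fold, the strains overlapped, and the mean was 1.75 (SE 0.25, n = 4 arrays, adjusted p = 2.65e-04, limma), a 5.75-fold rise. Per1, a repressor of the circadian clock that glucocorticoids also induce, had closely spaced values of 0.84 and 1.17 in mdx and 1.00 and 1.21 in control mice (mean 1.05, SE 0.24, adjusted p = 0.0324). Its call was lost in 7 of the 16 alternative settings. In the list of glucocorticoid, thyroid hormone and circadian genes, Klf9 and Per1 were the 2 members called of 25 (8%, beside 0.829% of all probes). Cebpb, a stress-responsive transcription factor, had values between 0.45 and 0.49 on the 4 arrays but was not called (adjusted p = 0.108). Dbp and Per2, other clock genes, had means of 0.30 and 0.02, and the list's median was 0.06.

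The other shared rises included genes of contraction and calcium handling in muscle. Pvalb, the calcium buffer of fast fibres, had 1.22 and 1.59 in mdx and 0.86 and 0.83 in control mice. It rose 3.08-fold (mean 1.12, SE 0.20, adjusted p = 0.00358), with both mdx arrays above both control arrays and a difference that was not called (0.56, SE 0.41, adjusted p = 0.841). Cacna2d1, the alpha2/delta subunit of the voltage-gated calcium channel, had 1.67 and 0.89 in mdx and 1.45 and 1.21 in control mice (mean 1.30, SE 0.24, adjusted p = 0.00419). Tpm3, the slow type of alpha tropomyosin, had 0.82 and 0.73 in mdx and 1.03 and 1.20 in control mice (mean 0.94, SE 0.15, adjusted p = 8.61e-04). S100a1, a calcium sensor that binds ryanodine receptors, had 0.82 and 1.11 in mdx and 0.74 and 0.75 in control mice (mean 0.86, SE 0.15). For these genes all 4 arrays were past 2-fold. Cnn2, an actin-binding calponin that is not specific to muscle, had 1.02 and 1.16 in mdx and 1.61 and 1.50 in control mice (mean 1.32, SE 0.19, adjusted p = 3.31e-04), and here the control arrays were the higher pair.

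In all, 7 probes were past 2-fold upward on every one of the 4 arrays (0.104% of probes) and 2 downward (0.0296%). The 7 were those of Klf9, Cnn2, Cacna2d1, Per1, S100a1, Pvalb and Tpm3, and the 2 those of Ryr3 and Dlk1. All 9 were also called over both strains (0.829% of all probes) and none in the difference between them (0.0592%). Probes picked for a large change in 1 direction on every array tend to give this result, so it adds no support.

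**Figure D1:**
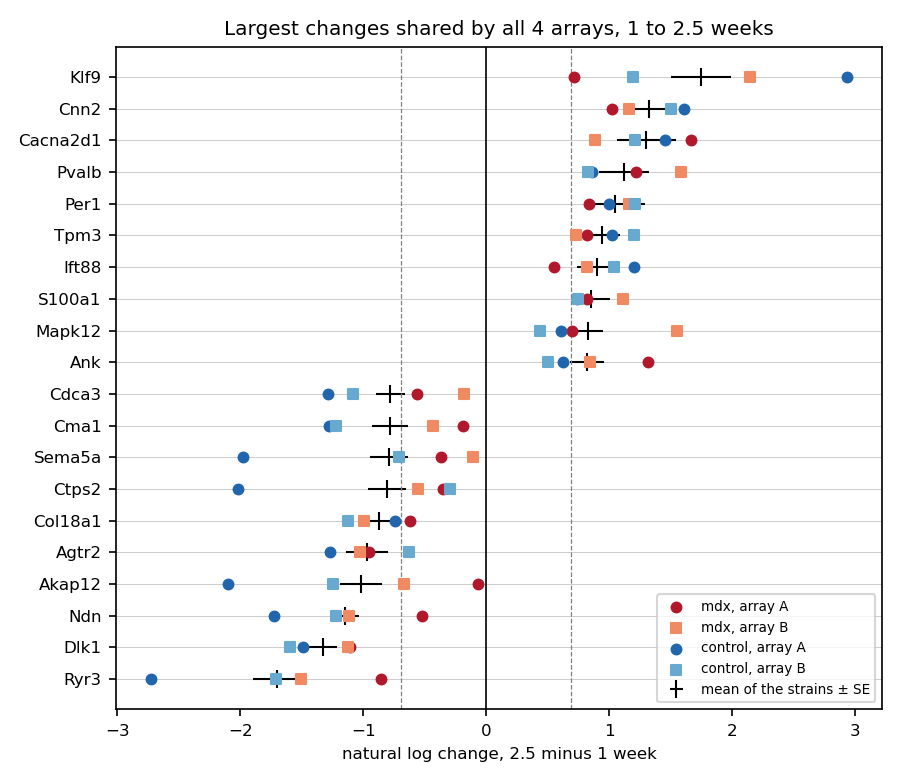
Natural log change from 1 to 2.5 weeks (horizontal axis) of the 10 largest rises and 10 largest falls among called probes with the same sign on all 4 arrays, 1 gene a row. Coloured points are the 4 arrays, the black mark and bar are the mean of the strains ± SE, and the dashed lines mark a 2-fold change; Klf9 is at the top with a mean of 1.75 and Ryr3 at the bottom with -1.70, and the control arrays lie left of the mdx arrays in most of the falls.

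Further genes rose over both strains. Mapk12, the p38 kinase of the gamma type found mainly in muscle, had 0.70 and 1.56 in mdx and 0.61 and 0.44 in control mice (mean 0.83, SE 0.13, adjusted p = 5.2e-04). Ank, a transporter of pyrophosphate, had 1.32 and 0.85 in mdx and 0.62 and 0.50 in control mice (mean 0.82, SE 0.14). Ift88, a protein of intraflagellar transport, had 0.55 and 0.82 in mdx and 1.20 and 1.04 in control mice (mean 0.90, SE 0.17). These 3 genes were above 0 on all 4 arrays with no overlap between the strains, in opposite order for Ift88. Among all probes, both mdx arrays lay above both control arrays in 30.3% and below them in 20.3%. None of the 3 genes was called in the difference. Sgcd, the delta-sarcoglycan of the dystrophin complex, had 1.20 and 0.51 in mdx and 0.71 and 0.55 in control mice (mean 0.75, SE 0.15, adjusted p = 0.0101). Tnni3, the troponin I of the heart, rose against the direction of its list of foetal and cardiac-type isoforms (mean 0.53, SE 0.12, adjusted p = 0.0324), and was called in 7 of the 16 alternative settings. Genes of lipid metabolism were among the calls outside the naming rule, picked here after their values were seen. Lpin1, a phosphatidate phosphatase and coactivator, had 0.61, 0.65, 0.93 and 0.67 on mdx arrays A and B and control arrays A and B (mean 0.72, SE 0.12, adjusted p = 0.00189). Srebf1, the transcription factor of fatty acid synthesis, had 0.53, 0.41, 0.98 and 0.86 in the same order (mean 0.69, SE 0.13, adjusted p = 0.00615).

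In control mice taken alone, 100 probes (1.48%) changed, 19 upward (0.281%) and 81 downward (1.20%). This count leaned on one array, since 4 probes were called without control array A and 66 without control array B, while 93 were called without either mdx array. The probes of Dlk1, Ndn and Ift46 were the 3 that stayed called when each array was left out. On the 2 control arrays all 100 had the same sign. In 74 of the 81 falls, both mdx arrays lay above both control arrays. These probes were picked for low control values, so the 30.3% of all probes is no like comparison. That a probe was called in control mice and not in mdx mice does not show that the strains differ, and only 4 probes passed the test of the difference. The changes of both strains are plotted against each other below.

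**Figure D2:**
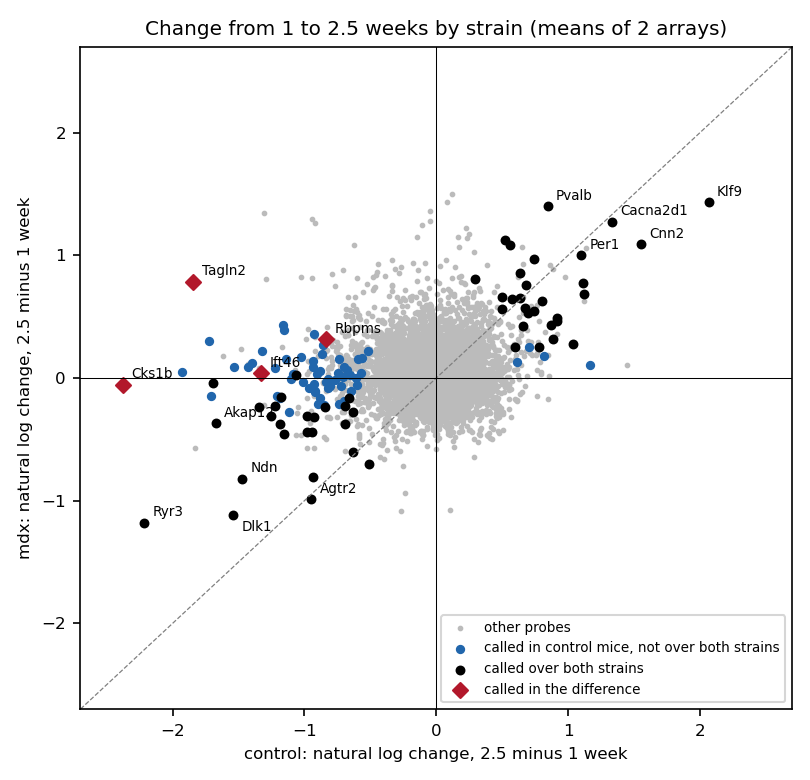
Mean natural log change of 2 control arrays (horizontal) and of 2 mdx arrays (vertical) for 6754 probes. Black points were called over both strains (56 probes), blue points in control mice but not over both strains, red diamonds in the difference between the strains (4 probes, of which Cks1b and Ift46 were also called over both strains), and the dashed line marks equal change. Most blue points lie left of 0 near an mdx change of 0. The choice of the blue points favours that place, so it adds no support.

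The list with the most control calls was that of cell division. Of 57 probes in the list of cell cycle and DNA replication genes, 9 were called lower in control mice and 0 higher (15.8%, beside 1.48% of all probes), and 0 were called in mdx mice. Without control array A 0 of the 9 stayed called, and without control array B 4 did (Cks1b, Ccna2, Mcm4 and Prim1). The median of the list was 0.10 and -0.07 on mdx arrays A and B and -0.41 and -0.31 on control arrays A and B, where the medians of all probes lay between -0.03 and 0.02. Of the 57 probes, 42 were below 0 on both control arrays (73.7%, all probes 38.1%) and 10 on both mdx arrays (17.5%, all probes 25.6%). In 34 both mdx arrays were above both control arrays (59.6%, all probes 30.3%). The median difference, mdx minus control, was 0.42, beside 0.05 for all probes. The difference itself was called for 1 member, Cks1b. Without control array A the median of the list was -0.31 in control mice and the median difference 0.35, and without mdx array A the median difference was 0.36. Cks1b was not called in the difference without control array A or either mdx array.

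Cks1b, the small subunit that cyclin-dependent kinases need to have their inhibitors degraded, changed by 0.16 and -0.27 in mdx and by -3.23 and -1.53 in control mice. The control arrays were far below the mdx arrays, which lay near 0. The fall in control mice was 10.8-fold (-2.38, SE 0.30, n = 2 arrays, adjusted p = 3.79e-05, limma). Ccnb2, a mitotic cyclin, had 0.53 and -0.36 in mdx and -1.44 and -1.42 in control mice, where it fell 4.18-fold (adjusted p = 0.019). Cdk1, the kinase that drives entry into mitosis, had 0.39 and -0.11 in mdx and -0.80 and -1.07 in control mice. It fell 2.55-fold in the controls (-0.94, SE 0.16, adjusted p = 0.00202), and its difference between the strains came near the threshold (1.08, SE 0.23, adjusted p = 0.0778). Prim1, the catalytic subunit of primase, had 0.22 and 0.23 in mdx and -1.75 and -0.90 in control mice (3.76-fold, adjusted p = 0.0217). Ccna2, the cyclin of S phase and early mitosis, was the member besides Cks1b that was also called over both strains, with -0.41 and -0.20 in mdx and -1.07 and -0.90 in control mice (mean -0.64, SE 0.12, adjusted p = 0.00351).

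The remaining members called in control mice were Mcm4 and Mcm5 of the replicative helicase (-1.09 and -0.68), Hmgb2, a chromatin protein of dividing cells (-0.74), and Prim2, the large primase subunit (-0.64). Outside the list, and picked after their values were seen, the mitotic kinase genes Pbk (-1.18) and Melk (-0.70) and the DNA polymerase epsilon subunit gene Pole2 (-0.92) fell in control mice as well. Other proliferation genes, likewise picked after their values were seen, were not called. Mki67, the antigen most used to count cycling cells, had -0.27 and 0.14 in mdx and -0.17 and -0.28 in control mice (control adjusted p = 0.801). Pcna, the sliding clamp of replication, had 0.14 and 0.43 in mdx and -0.01 and -0.48 in control mice (control adjusted p = 0.842).

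**Figure D3:**
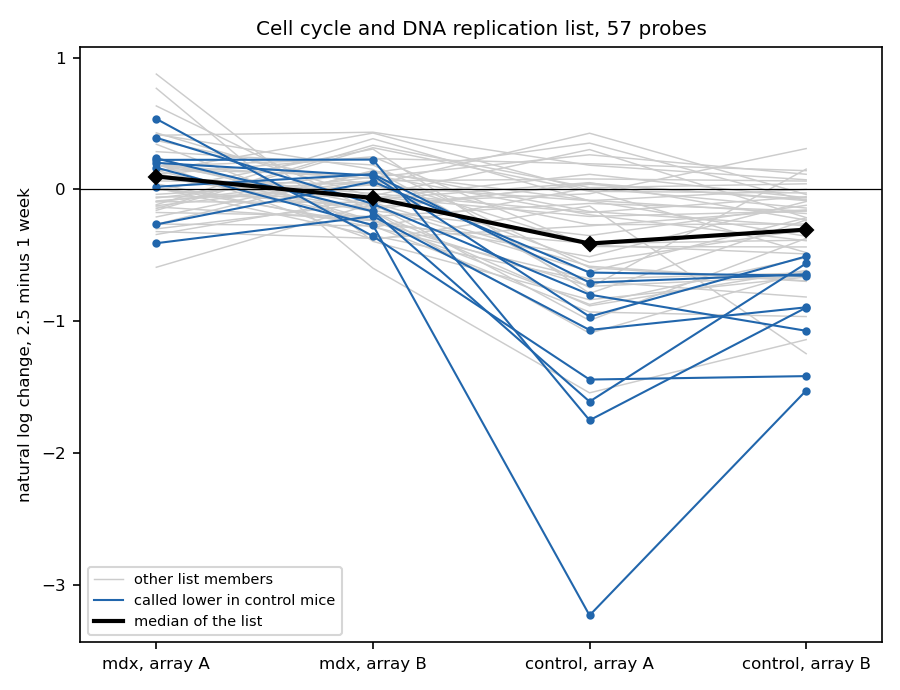
Natural log change from 1 to 2.5 weeks (vertical) of 57 probes of cell cycle and DNA replication genes on the 4 arrays (horizontal). Each line is a probe, blue for the 9 called lower in control mice, and black is the median, at 0.10 and -0.07 in mdx and -0.41 and -0.31 in control mice; the lowest line on the control arrays is Cks1b.

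Many genes of this group share short promoter letters, and 4 promoters of genes called in control mice are shown for that reason: Cks1b, Ccnb2 and Cdk1 of the mitotic entry machinery and, for comparison, Prim1 of replication. Each line is the 250 bases before the gene's start, 5′ to 3′ on the gene's strand, from RefSeq on GRCm38.p6, while the array files name no build. Capitals mark matches on either strand to the cell cycle genes homology region, searched as TTTGAA (reading TTCAAA on the other strand), and to the CCAAT box, searched as CCAAT (reading ATTGG on the other strand). No 2 matches overlapped in these windows.
Cks1b (chr3:89418292-89418541, minus strand): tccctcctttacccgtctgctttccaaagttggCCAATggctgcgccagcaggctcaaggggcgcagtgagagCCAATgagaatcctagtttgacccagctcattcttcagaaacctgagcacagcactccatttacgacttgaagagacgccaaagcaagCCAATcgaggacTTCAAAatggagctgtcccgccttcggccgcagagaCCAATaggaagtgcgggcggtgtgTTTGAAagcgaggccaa
Ccnb2 (chr9:70421555-70421804, minus strand): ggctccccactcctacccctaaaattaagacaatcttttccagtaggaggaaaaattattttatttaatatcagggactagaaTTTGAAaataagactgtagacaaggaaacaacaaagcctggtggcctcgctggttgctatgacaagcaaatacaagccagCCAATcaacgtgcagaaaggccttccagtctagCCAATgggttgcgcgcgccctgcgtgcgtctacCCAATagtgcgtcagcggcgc
Cdk1 (chr10:69352913-69353162, minus strand): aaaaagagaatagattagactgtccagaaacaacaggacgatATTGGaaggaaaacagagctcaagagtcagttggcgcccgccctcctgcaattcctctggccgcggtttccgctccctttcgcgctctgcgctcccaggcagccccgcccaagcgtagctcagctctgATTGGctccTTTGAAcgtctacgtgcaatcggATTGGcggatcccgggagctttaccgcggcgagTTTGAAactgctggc
Prim1 (chr10:128014965-128015214, plus strand): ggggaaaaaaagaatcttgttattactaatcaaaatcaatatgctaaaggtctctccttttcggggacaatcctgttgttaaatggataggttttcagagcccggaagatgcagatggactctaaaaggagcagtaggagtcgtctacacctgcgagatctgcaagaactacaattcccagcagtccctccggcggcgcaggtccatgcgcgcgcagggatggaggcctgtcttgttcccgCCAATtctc
Cks1b held 2 matches to TTTGAA, the nearest 17 bases before its start, and 4 to CCAAT. Cdk1 held 2 and 3, with the nearest TTTGAA at 15 bases, and Ccnb2 held 1 at 167 bases and 3 to CCAAT. Prim1 held 0 and 1. Of the 9 list members called in control mice, 6 had a window in the table (Cks1b, Ccnb2, Cdk1, Prim1, Mcm5 and Hmgb2), 4 of which held TTTGAA and 6 CCAAT. Of all 27025 genes with a window, 16.3% held TTTGAA and 34.5% CCAAT, and of the 5168 genes with a window that were measured on the arrays, 11.5% and 36.1%. Of the 47 measured list members with a window, 11 held TTTGAA (23.4%) and 30 CCAAT (63.8%). A match of these letters describes the window and does not show a bound factor.

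The extracellular matrix followed the same order of arrays. Of 71 probes for collagens and matrix proteins, 5 were called lower and 0 higher in control mice (7.04%, beside 1.48% of all probes) and 0 in mdx mice. Without control array A 0 of the 5 stayed called, and without control array B 1 did (Loxl1). The median was 0.07 and -0.11 on the mdx arrays and -0.37 and -0.18 on the control arrays, and 51 probes were below 0 on both control arrays (71.8%, all probes 38.1%) and 24 on both mdx arrays (33.8%, all probes 25.6%). Without control array A the median in control mice was -0.18, beside -0.30 with it. Loxl1, a cross-linker of elastin, had 0.17 and -0.46 in mdx and -3.13 and -0.29 in control mice, so its call in the controls (-1.71, SE 0.40, adjusted p = 0.023) was set mainly by control array A. Thbs2, a matricellular thrombospondin, had -0.14 and -0.61 in mdx and -0.88 and -0.52 in control mice, with overlapping strains, and was called over both (mean -0.53, SE 0.12, adjusted p = 0.0238). The microfibril protein gene Mfap2 (-0.82), the fibulin gene Fbln2 (-0.61) and Col18a1 (-0.94) made up the control calls. The fibrillar collagen genes Col1a1 and Col3a1, named after their values were seen, were not called in either strain, with control means of -0.64 and -0.05. On mdx array A, Col1a1 and the proteoglycan gene Dcn were both at 1.24, and on mdx array B at -0.31 and -0.10. Of the list, 0 probes passed the test of the difference.

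Some markers of other cell types also fell in control mice. Cma1 and Cpa3, both proteases of mast cell granules, were called lower (-1.25 and -0.97). They were the 2 called of 20 probes in the list of lymphocyte and mast cell markers (10%, beside 1.48% of all probes), whose median lay between -0.08 and -0.04 on the 4 arrays, and the mast cell genes Tpsb2 and Kit were not called (means over both strains -0.20 and -0.21). Pmp22, a myelin protein of Schwann cells that fibroblasts also make, had 0.25 and 0.06 in mdx and -1.26 and -1.03 in control mice (adjusted p = 0.021 in control, 0.251 in the difference). It was the 1 member called of 20 Schwann cell and nerve probes (5%), from which nothing is read about the list. Scd2, a fatty acid desaturase of growing tissues, had 0.17 and 0.08 in mdx and -1.82 and -0.97 in control mice (adjusted p = 0.00227 in control, 0.122 in the difference), and was the 1 called of 17 adipocyte probes (5.88%), likewise a single gene. No probe of the macrophage and myeloid list (37), the endothelial list (16), the erythroid list (20), the keratinocyte list (19) or the cartilage, bone and tendon list (19) was called over both strains or in control mice. What part the makeup of the tissue had in the falls was not tested.

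Regulators of muscle precursors were represented by single genes. Fgfr4, a growth factor receptor of myoblasts, fell 2.24-fold in control mice (-0.81, SE 0.17, adjusted p = 0.0138), with 0.09 and -0.23 in mdx and -1.07 and -0.55 in control mice. It was the 1 called of 28 probes in the list of satellite cell and myogenic factors (3.57%, beside 1.48% of all probes), whose median was -0.01 on control array A and -0.02 on control array B. Myog, the myogenic factor of differentiation, had -0.24 and 0.03 in mdx and 0.46 and -0.44 in control mice, and the control arrays disagreed. Myod1 had a mean of 0.57 over both strains and just missed the threshold (adjusted p = 0.0617). In the Notch pathway Heyl, a target gene of the receptors, fell in control mice (-0.77, SE 0.18, adjusted p = 0.0217) as the 1 called of 28 probes (3.57%). Notch2 had a mean of 0.12 and the Notch inhibitor Numb, below 0 on all 4 arrays, of -0.28 (adjusted p = 0.925 and 0.235).

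In mdx mice taken alone, 3 probes (0.0444%) changed, 2 upward and 1 downward, with 377 at an unadjusted p under 0.05. The rises were those of Mapk12 (1.13, SE 0.18, n = 2 arrays, 3.09-fold, adjusted p = 0.00455, limma) and Ank (1.08, SE 0.20, 2.95-fold, adjusted p = 0.0248), and the fall was that of Dlk1 (-1.11, SE 0.16, adjusted p = 0.00158). All 3 were called over both strains too, and none in the difference. Without mdx array A, 1 of the 3 calls stayed, and without mdx array B 0 did.

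By size alone, 10 probes were past 2-fold upward on both mdx arrays and on no control array (0.148%), and 1 downward (0.0148%), Kera, the corneal and tendon proteoglycan keratocan. The 10 were Tnni1, Got1, Txn2, Egf, Noct, Ccl9, G3bp2, Mgll, Mapk12 and Ank. Tnni1, the troponin I of slow fibres, had 1.94 and 0.74 in mdx and -0.91 and -1.70 in control mice. It lay past 2-fold above 0 on both mdx arrays and past 2-fold below 0 on both control arrays, yet its difference was not called (2.65, SE 0.68, adjusted p = 0.215). Got1, the cytosolic aspartate aminotransferase, had 1.60 and 1.27 in mdx and 0.22 and -0.05 in control mice. Txn2, the mitochondrial thioredoxin, had 1.33 and 1.39 in mdx and 0.37 and -0.46 in control mice. None of the 10 passed the test of the difference (the adjusted p of Got1 was 0.292 and of Txn2 0.31).

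On both control arrays and neither mdx array, 11 probes were past 2-fold upward (0.163%) and 76 downward (1.13%). One of the 4 probes of Neb, the thin filament ruler nebulin, had -0.25 and 0.47 in mdx and 1.65 and 1.25 in control mice, and the other probes had control means between 0.17 and 0.65. Rbfox1, a splicing factor of muscle and brain, had -0.02 and 0.23 in mdx and 1.28 and 1.05 in control mice, and was called in the controls (1.17, SE 0.24, adjusted p = 0.0117) but not in the difference (adjusted p = 0.334). Of the 76, 36 were called in control mice and 3 in the difference.

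The test of the difference itself called 4 probes of 6754 (0.0592%), all higher in mdx than in control mice, with 534 at an unadjusted p under 0.05. Ift46, a protein of intraflagellar transport, had 0.05 and 0.03 in mdx and -1.16 and -1.50 in control mice. The mdx arrays were at 0 and the control arrays far below, and the difference was 1.37 (SE 0.18, n = 2 arrays per strain, adjusted p = 5.37e-04, limma), or 3.94-fold. Rbpms, an RNA-binding protein, had 0.33 and 0.30 in mdx and -0.99 and -0.68 in control mice (difference 1.15, SE 0.20, adjusted p = 0.0195), so the strains had opposite signs. For Cks1b the difference was 2.33 (SE 0.43, adjusted p = 0.0275). Tagln2, an actin-binding transgelin of non-muscle and smooth muscle cells, had 1.38 and 0.19 in mdx and -2.71 and -0.98 in control mice (difference 2.63, SE 0.51, adjusted p = 0.0461). Ift46 stayed called whichever array was left out, and the other 3 did not. Without mdx array A or control array A, 2 probes were called, and without control array B 29. With the spread taken from the 4 arrays alone, 0 probes were called (lowest adjusted p of the 4 was 0.201).

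Behind these 4, Dguok, the mitochondrial deoxyguanosine kinase, had the next smallest p among the rises (0.87 and 0.00 in mdx, -0.99 and -1.34 in control mice, adjusted p = 0.0529). No probe was called lower in mdx mice. The 5 with the smallest p in that direction were Mpp2, Ptprs, Kcnh7, Scly and Txnrd2. Ptprs, a receptor tyrosine phosphatase, had -0.44 and -1.71 in mdx and 0.16 and 0.06 in control mice (difference -1.18, SE 0.32, adjusted p = 0.251). Txnrd2, the mitochondrial thioredoxin reductase, had -0.55 and -0.27 in mdx and 0.50 and 0.36 in control mice (difference -0.84, SE 0.25, adjusted p = 0.262).

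**Figure D4:**
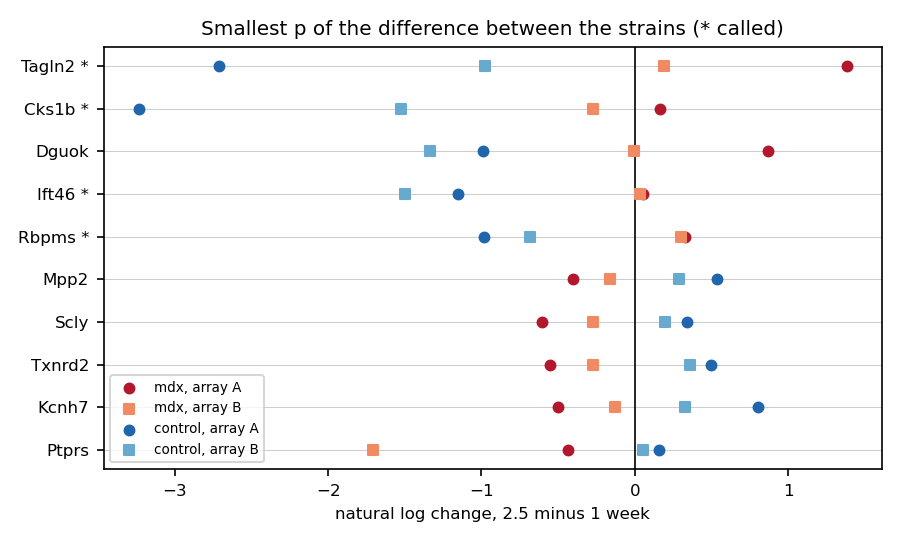
Natural log change from 1 to 2.5 weeks (horizontal axis) on the 4 arrays for the 5 probes with the smallest p of the difference between the strains in each direction, 1 gene a row. An asterisk marks the 4 called probes, all with the mdx arrays to the right of the control arrays, from Rbpms with a difference of 1.15 to Tagln2 with 2.63.

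The lists of contractile isoforms held few calls. Of 20 probes for adult fast fibre proteins, Pvalb was the 1 called over both strains (5%, beside 0.829% of all probes), and the medians were 0.43 and 0.14 on the mdx arrays and 0.39 and -0.03 on the control arrays. Actn3, the alpha-actinin of fast fibres, had 1.53 and 0.32 in mdx and 0.49 and 0.28 in control mice (mean 0.65, adjusted p = 0.0791). Casq1, the calsequestrin of fast fibres, had 1.19 and 0.51 in mdx and -0.74 and -0.84 in control mice, without passing the test of the difference (adjusted p = 0.355). Of 8 slow fibre probes, 7 were above 0 on both mdx arrays (87.5%, all probes 33.4%), with medians of 0.47 and 0.55 there and of 0.01 and -0.26 on the control arrays. Tpm3 was the 1 called of the 8 over both strains (12.5%). Tnnc1, the troponin C of slow fibres, had 0.63 and 0.54 in mdx and 0.06 and -0.23 in control mice (difference adjusted p = 0.826).

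Of 18 probes for foetal and cardiac-type isoforms, 1 of Ryr3 was called lower and Tnni3 higher over both strains (11.1%, beside 0.829% of all probes). In control mice the same Ryr3 probe and Casq2 were called lower (11.1%, beside 1.48% of all probes). Casq2, the calsequestrin of heart and slow fibres, had 0.04 and -0.33 in mdx and -1.21 and -1.20 in control mice (control mean -1.20, SE 0.30, adjusted p = 0.0402). The medians of the list were -0.02 and -0.11 on the mdx and -0.24 and -0.22 on the control arrays. Ncam1, an adhesion molecule of immature fibres, was represented by 3 probes with means of -0.58, -0.56 and 0.08, none of them called. Chrng, the foetal subunit of the acetylcholine receptor, had a mean of -0.10.

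The lists of energy metabolism had medians above 0 over both strains and held no call there. The median over both strains was 0.12 for 30 probes of glycolysis, glycogen and phosphocreatine, 0.18 for 36 of oxidative phosphorylation and the TCA cycle and 0.11 for 23 of fatty acid oxidation, beside -0.01 for all probes. Of the 36 oxidative probes, 33 had a mean above 0, as had 3278 of all 6754. Above 0 on all 4 arrays were 9 of the 36 and 794 of the 6754. The oxidative medians were 0.11 and 0.16 on the mdx arrays and 0.20 and 0.03 on the control arrays. Those of glycolysis were 0.11 and 0.22 in mdx and 0.12 and 0.05 in control mice. The fatty acid medians were 0.23 and 0.16 in mdx and 0.03 and -0.13 in control mice, so this list leaned on the mdx arrays. Pygm, the muscle glycogen phosphorylase, had a mean of 0.44 (adjusted p = 0.166) and Cycs, cytochrome c, of 0.43 (adjusted p = 0.434). Idh2, the mitochondrial isocitrate dehydrogenase, was called lower in control mice (-0.86, SE 0.20, adjusted p = 0.0249).

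Within the dystrophin complex Sgcd was the 1 called of 31 probes over both strains (3.23%, beside 0.829% of all probes). The 2 probes of Dmd, which lie in different parts of the gene and need not read the same transcripts, had means of -0.12 and 0.30 over both strains, and neither was called. Utrn, the autosomal homologue of dystrophin, had -0.11 and -0.15 in mdx and 0.34 and 0.22 in control mice, without overlap and without a call in the difference (-0.41, SE 0.22, adjusted p = 0.682). Both mdx arrays lay below both control arrays in 20.3% of all probes. Ldb2 and Ldb3, alike in name and always included by the naming rule, are not read here as a group. Ldb2 had a mean of -0.20 and was below 0 on all 4 arrays. Ldb3, a gene of the Z-line, had a mean of 0.28, with 1.34 on mdx array A and between -0.28 and 0.10 on the others.

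**Figure D5:**
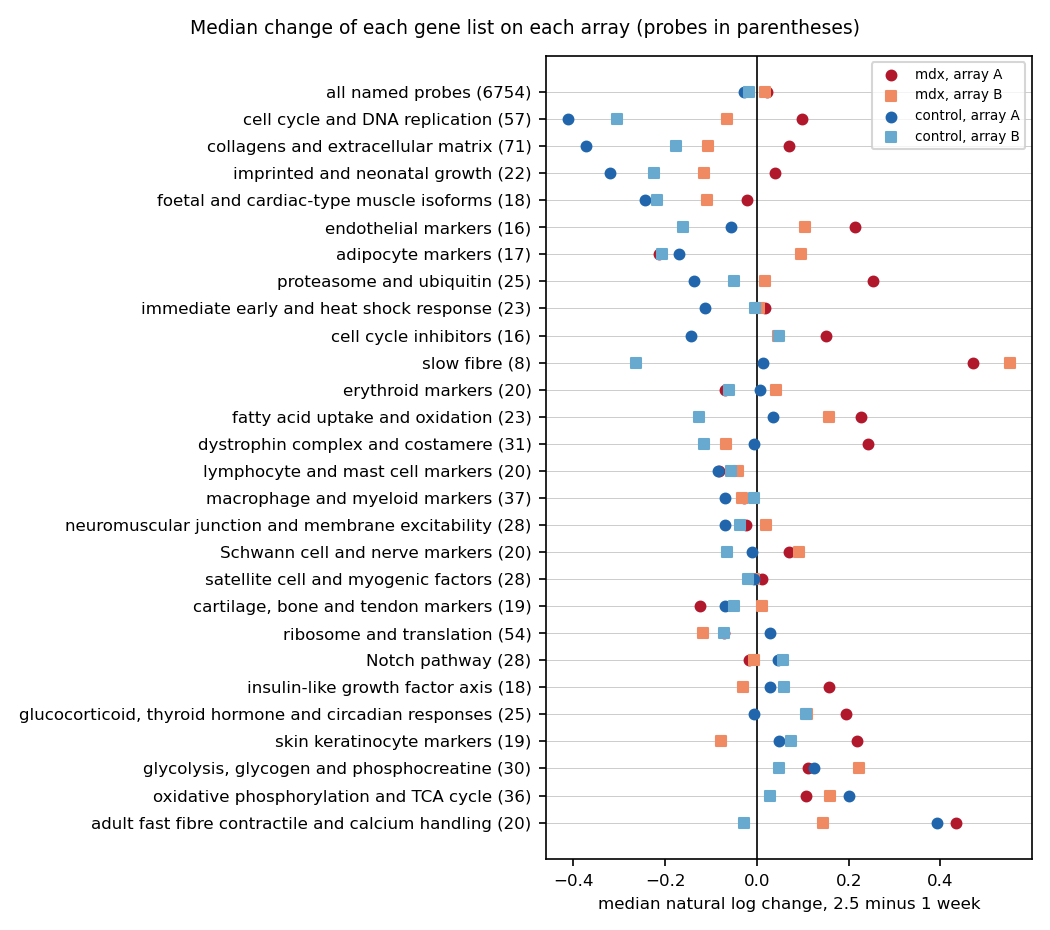
Median natural log change from 1 to 2.5 weeks (horizontal axis) of 27 gene lists and of all probes on each of the 4 arrays, with the number of probes in parentheses and the lists ordered by their median in control mice. The cell cycle and matrix lists are at the top with control medians of -0.30, and the slow fibre list has its mdx medians (0.47 and 0.55) to the right of its control medians.

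The neighbouring arrays of the loop show how these changes went on, although they share the 1-week or the 2.5-week animals and are no independent measurement. From 2.5 to 4 weeks Dlk1 changed by a further -1.22 in mdx animals and -0.93 in controls, and by -1.98 and -2.17 from 1 to 20 weeks. Ndn changed by -2.02 and -1.54 from 1 to 20 weeks. Klf9 had the opposite sign later, with -0.52 in each strain from 2.5 to 4 weeks. At 20 weeks it stood at 0.24 against the 1-week mdx animals and at -0.56 against the 1-week controls. Per1 likewise had -0.79 and -0.16 from 2.5 to 4 weeks and -0.42 and -0.50 from 1 to 20 weeks. Pvalb, Cnn2 and Tpm3 were instead still above their 1-week level at 20 weeks, by 0.84, 1.23 and 1.09 in mdx and by 1.38, 1.41 and 1.15 in control mice. For the cell cycle list, the median from 2.5 to 4 weeks was -0.07 for mdx animals and -0.01 for controls, and from 1 to 20 weeks -0.18 and -0.39. In the same fit, 100 probes were called from 1 to 2.5 weeks in control mice, and the steps between later neighbouring ages had between 0 and 21 calls in these mice. The 100 leaned on control array A, as given above. The later steps were not refitted without an array, so how far their counts lean on 1 array was not tested. In mdx mice 3 were called from 1 to 2.5 weeks and between 0 and 64 in the later steps, with the 64 from 6 to 8 weeks.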

How the data were processed

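RNA of hindlimb muscle was measured on 2-colour oligonucleotide arrays in a loop over 9 ages, with 2 individuals per age and strain. The authors scanned and quantified the arrays with GenePix, subtracted local background and applied variance stabilising normalization, and the deposited value of a spot is the natural log ratio of channel 1 over channel 2. No intensities were used here, so dim spots were not filtered. From these values the mean of each strain's 18 arrays was subtracted per spot as the dye effect, each ratio was turned to older minus younger, and duplicate spots were averaged (7776 positions, 6754 named probes). Gene names came from the platform annotation.

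limma 3.58.1 in R 4.3.3 was fitted to all 36 arrays with 18 groups (18 residual degrees of freedom), which lends the spread of all ages to the 4 arrays. Contrasts were the mean of the strains, each strain and mdx minus control, with Benjamini-Hochberg adjustment over 6754 probes and a threshold of 0.05. Each array compared 1 animal with 1 other animal, so p-values measure the spread among such pairs. The fit was also run on simulated data in which a probe had the same spread on every array. That run does not bear on calls that lean on a single array. Alternatives covered centring, scaling, dye terms, single spots, the spread, a replicate block, loop fits, array weights, all positions and leaving out each array.

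Named were the 10 largest rises and falls over both strains with 1 sign on all 4 arrays, the called differences and the 5 with the smallest p in each direction, the 5 largest per strain, up to 6 members per list with all called members, and Dmd, Utrn, Myog, Notch2, Numb, Ldb2 and Ldb3. Genes named beyond this rule, such as those past 2-fold on the arrays of 1 strain and list members that were not called, were chosen after their values were seen. The members and lists were chosen with earlier results of these data known. The letters A and B did not pair the arrays (correlation of same-letter deviations -0.0987).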

Additional observations from a re-analysis of the deposited data

Results flagged for a closer look

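The change from 1 to 2.5 weeks differed between mdx and control mice for 4 probes by limma's test of the difference itself (mdx minus control, natural log, n = 2 arrays per strain). The differences were 2.63 for Tagln2, 2.33 for Cks1b, 1.37 for Ift46 and 1.15 for Rbpms. Both mdx arrays lay above both control arrays in each, as in 30.3% of all probes. Probes picked by this test tend to show that order, so it adds no support. Over the 16 alternative settings the adjusted p ranged from 1.13e-06 to 0.65 for Ift46, which was called in 13 of them. It ranged up to 0.762 for Cks1b, 0.448 for Rbpms and 1.00 for Tagln2, each called in 10. Groups of 2 arrays were too small to look for single outlying arrays by the gap between values.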

How the results depend on the processing

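No named gene called in a comparison changed sign under any of the 16 alternatives, and 6 of 56 such calls were kept under all of them. These 56 are calls of named genes taken over all comparisons, and not the 56 probes called over both strains. Leaving out control array A ended most of these named-gene calls, and the second spot alone ended 35. Called probes over both strains numbered 56, and 154 after scaling each array, 19 from the second spot, 91 in the loop fit with independent arrays, 374 with array weights, and from 13 to 67 when an array was left out. In mdx mice they numbered 3, and 37 after scaling, 32 without dye correction, 7 with 1 dye term for both strains, 36 from the first and 1 from the second spot, 6 with the spread of the 4 arrays, 7 and 8 in the loop fits without and with shared-animal covariance, 81 with array weights, 12 with all positions, and from 3 to 4 when an array was left out. In control mice they numbered 100, and 286 without dye correction, 31 from the second spot, 59 with the spread of the 4 arrays, 691 with array weights, and from 4 to 93 when an array was left out. For the difference they numbered 4, and 13 after scaling, 189 without dye correction, 15 from the first and 0 from the second spot, 0 with the spread of the 4 arrays, 8 and 7 in the loop fits, 232 with array weights, 9 with all positions, and from 2 to 29 when an array was left out. With the replicate block, that is the letters A and B as a term, 97, 17 and 162 probes were called over both strains, in mdx and in control mice, and 4 in the difference, 0 of them shared with the main 4. The causes were not tested. Without dye correction the median difference of all probes moved from 0.05 to 0.15, and the split of the difference was 148 higher and 41 lower.

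The limits are those of 2 arrays per strain. The median SE was 0.13 over both strains, 0.19 within a strain and 0.27 for the difference. The smallest difference called was 1.15, well above 2-fold, and larger ones such as that of Tnni1 (2.65) were not called. Ratios without intensities leave signal over background unknown. Both arrays of a strain had the same dye orientation.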
